A study of Mus musculus with 8 samples.

Results

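The genes described here lie in, or were named from, a stretch of mouse chromosome 4 that carries repeated copies of the chemokine gene Ccl21 and of the interleukin 11 receptor gene Il11ra. They are Gm1987, Gm13304, Gm3893, Gm13298, 4933409K07Rik, Ccl19, Ccl21a, Ccl27a, Il11ra1 and Il11ra2. These 10 symbols were looked up by gene name among 55681 probes, and 16 probes carried 8 of them. No probe was named Ccl21a or Il11ra2. Below, the probes of the copies are those of Gm1987, Gm13304, Gm3893, Gm13298 and 4933409K07Rik. Among them only the Gm1987 and Gm13304 probes read Ccl21-type transcripts, and none lists an Il11ra gene as a target. The genes were picked because several of them differ between the genotypes in these same data, so their differences are given as a description, with no p, and a count of them past a threshold describes that choice.

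Prefrontal cortex RNA was measured in 4 male α-Gal A(-/0) mice and 4 male C57BL/6J wildtype mice, all aged 20 to 24 weeks, with 1 one-color Agilent array for each mouse. The α-Gal A(-/0) line, a model of Fabry disease, lacks the lysosomal enzyme α-galactosidase A throughout the body and is kept on a C57BL/6 background. Both lines came from inbred colonies of their own, so on these arrays genotype and colony cannot be told apart. For its RT-qPCR the study used backcrossed α-Gal A(-/0) mice to account for the colonies. Of the genes named above it assayed only Gm1987, which was also significantly lower in those mice, by a far smaller fold than on the arrays. These folds are not like for like. The Gm1987 array probe lists further targets, and which copies the RT-qPCR assay read is not given. The 8 arrays shared 1 slide and 1 scan, and each replicate is a mouse of its own.

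Ccl21 and Ccl19 are the ligands of the receptor Ccr7, which guides T cells and dendritic cells into lymphoid tissue. Ccl27 binds Ccr10 and is best known from skin. Il11ra is the α chain that binds interleukin 11 and signals together with gp130, the product of Il6st. In the mouse these genes were duplicated as a block, and the copies are nearly identical in sequence. The spontaneous mouse mutant plt lacks expression of Ccl19 and of a Ccl21 gene in lymphoid tissue.

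In the RefSeq gene list of GRCm38.p6, used here for names and order only, 47 entries stand between Il11ra1 and Ccl21a, of which 17 are protein coding, 23 are pseudogenes of some kind and 7 are long non-coding RNAs. Each of the 8 genes with a probe matched a RefSeq entry, and Gm13298 is listed there as Fam205a2. Gm1987 and 4933409K07Rik are not among the 47 entries of that interval, so their place in its order is not given. Gm1987, Gm13304 and Gm13298 are annotated as protein coding, while Gm3893 and 4933409K07Rik are annotated as transcribed pseudogenes. Positions below follow mm9, as the array files give them, where several copies are placed on chrUn_random, the sequence not yet assigned to a chromosome.

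The first sequences are shown because a pair of almost identical probes gave very different fold changes. The 60-base probes of Gm1987 (chr4:42232117-42232176, + strand) and Gm13304 (chrUn_random:739167-739226, - strand) overlap by 56 bases, of which 54 are identical. Counted from the 5′ end of the Gm1987 probe, with the Gm1987 base first, the differences are T2C and G46A. The last 30 shared bases are given here, with the differing base in capitals.
Gm1987 probe: atacctaactgaataaaaaGgtgatccagc
Gm13304 probe: atacctaactgaataaaaaAgtgatccagc
Both stretches hold the polyadenylation signal AATAAA, which was searched in the printed direction only. It occurs in 5 of the 16 probes, the others being both 3′ Ccl27a probes and the Il11ra1 probe, and in 10.1% of all probes on the array. The design lists Ccl21a, Gm10591 and Gm13304 beside Gm1987 as targets of the Gm1987 probe, and Ccl21b, Ccl21d and Gm10591 beside Gm13304 as targets of the Gm13304 probe. Neither probe can therefore be assigned to a single Ccl21 copy, and the transcript of Ccl21a, which has no probe of its own name, is given as a target of the Gm1987 probe only.

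The likeness extends to the promoters of the Ccl21-type genes Gm13304, Ccl21d and Ccl21a, the only ones compared. In RefSeq windows of GRCm38.p6 that run from 250 bases before to 50 bases after the gene start, Gm13304 and Ccl21d differ at 1 of 300 bases, Ccl21d and Ccl21a at 2 of 299 and Gm13304 and Ccl21a at 3 of 299. The 40 bases below, upstream of the start, hold the 2 variable bases before the start in capitals. Gm1987 has no entry in that table.
Gm13304 promoter, + strand: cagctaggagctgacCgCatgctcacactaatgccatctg
Ccl21d promoter, + strand: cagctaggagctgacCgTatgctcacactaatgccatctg
Ccl21a promoter, - strand: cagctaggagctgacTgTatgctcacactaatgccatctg

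The probes of the transcribed pseudogenes are shown because they are the non-coding copies of the cluster, and the Gm3893 probe at position 694 has the largest difference of the cluster after Gm1987. They lie at chrUn_random:553634-553693 and chrUn_random:551528-551587 for Gm3893, both on the - strand, and at chr4:42472710-42472769 on the + strand for 4933409K07Rik.
Gm3893 probe at transcript position 694: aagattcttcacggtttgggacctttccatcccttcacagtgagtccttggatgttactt
Gm3893 probe at transcript position 2800: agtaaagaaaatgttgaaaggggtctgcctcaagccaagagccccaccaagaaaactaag
4933409K07Rik probe: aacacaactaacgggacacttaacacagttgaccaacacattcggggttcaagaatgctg

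Signals of the 16 probes are given as log2 of the scanner's processed brightness after quantile normalization over the 8 arrays, in the order of mouse 1 to 4. A log2 fold change is α-Gal A(-/0) minus wildtype and carries its standard error (SE) from a linear model over all tested probes. All 16 probes were well above background on all 8 arrays. Levels of different probes are not compared, since brightness also depends on the probe.

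The Gm1987 probe, which reads Ccl21-type transcripts, had log2 signals of 8.00, 7.99, 8.13 and 8.36 in α-Gal A(-/0) mice, against 14.56, 14.13, 14.26 and 14.40 in wildtype mice. All 4 α-Gal A(-/0) mice were at least 5.77 log2 units below every wildtype mouse. The log2 fold change was -6.22 (SE 0.12), a signal 74.4-fold higher in wildtype, and among 34339 tested probes it ranked 2 from the most negative.

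The Gm13304 probe, which differs from it at 2 of 56 shared bases, had signals of 12.89, 13.21, 13.34 and 13.61 in α-Gal A(-/0) mice, against 15.22, 14.91, 15.02 and 15.10 in wildtype mice. The groups did not overlap here either, but the log2 fold change was -1.80 (SE 0.15), or 3.48-fold higher in wildtype. Among wildtype mice both probes were highest in mouse 1, followed by mice 4, 3 and 2.

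Gm3893 has a pair of probes. The probe at transcript position 694 had signals of 7.66, 7.49, 7.45 and 7.46 in α-Gal A(-/0) mice, against 11.69, 11.93, 11.77 and 11.48 in wildtype mice, with a log2 fold change of -4.20 (SE 0.10), or 18.4-fold. The probe at position 2800 had 7.43, 7.66, 7.49 and 7.79 in α-Gal A(-/0) mice, against 9.760, 10.001, 9.953 and 9.796 in wildtype mice, with a log2 fold change of -2.29 (SE 0.10). Every α-Gal A(-/0) mouse lay below every wildtype mouse on both probes, and the size of the difference was not the same on them. Whether this reflects the part of the transcript or the probe itself was not tested.

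4933409K07Rik had signals of 9.46, 9.36, 9.11 and 9.01 in α-Gal A(-/0) mice, against 11.54, 11.66, 11.49 and 11.33 in wildtype mice. The groups were far apart, with a log2 fold change of -2.27 (SE 0.12), or 4.82-fold higher in wildtype.

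Gm13298, named Fam205a2 in RefSeq, was read by 4 probes on the - strand of chrUn_random. At transcript position 3385 (chrUn_random:672602-672661) the signals were 9.02, 9.07, 8.95 and 9.06 in α-Gal A(-/0) mice, against 11.64, 11.91, 11.82 and 11.59 in wildtype mice, with a log2 fold change of -2.71 (SE 0.08). Its neighbouring probes at positions 3654 and 3263 gave -2.77 (SE 0.12) and -2.05 (SE 0.08). These 3 probes also list Fam205a1 as a target, and the one at 3385 lists Gm3893 as well.

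The probe near the 5′ end of Gm13298, at position 145 (chrUn_random:677511-677570), lists Fam205a2 alone. Its signals were 9.11, 8.91, 8.74 and 8.88 in α-Gal A(-/0) mice, against 9.67, 10.02, 9.59 and 9.45 in wildtype mice. The groups did not overlap, but the log2 fold change of -0.77 (SE 0.13) was the smallest among the 9 probes of the copies. The 7 probes of Gm13298, Gm3893 and 4933409K07Rik were all highest in wildtype mouse 2, the mouse in which both Ccl21-type probes were lowest within the wildtype group, and 6 of the 7 were lowest in wildtype mouse 4.

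**Figure D1:**
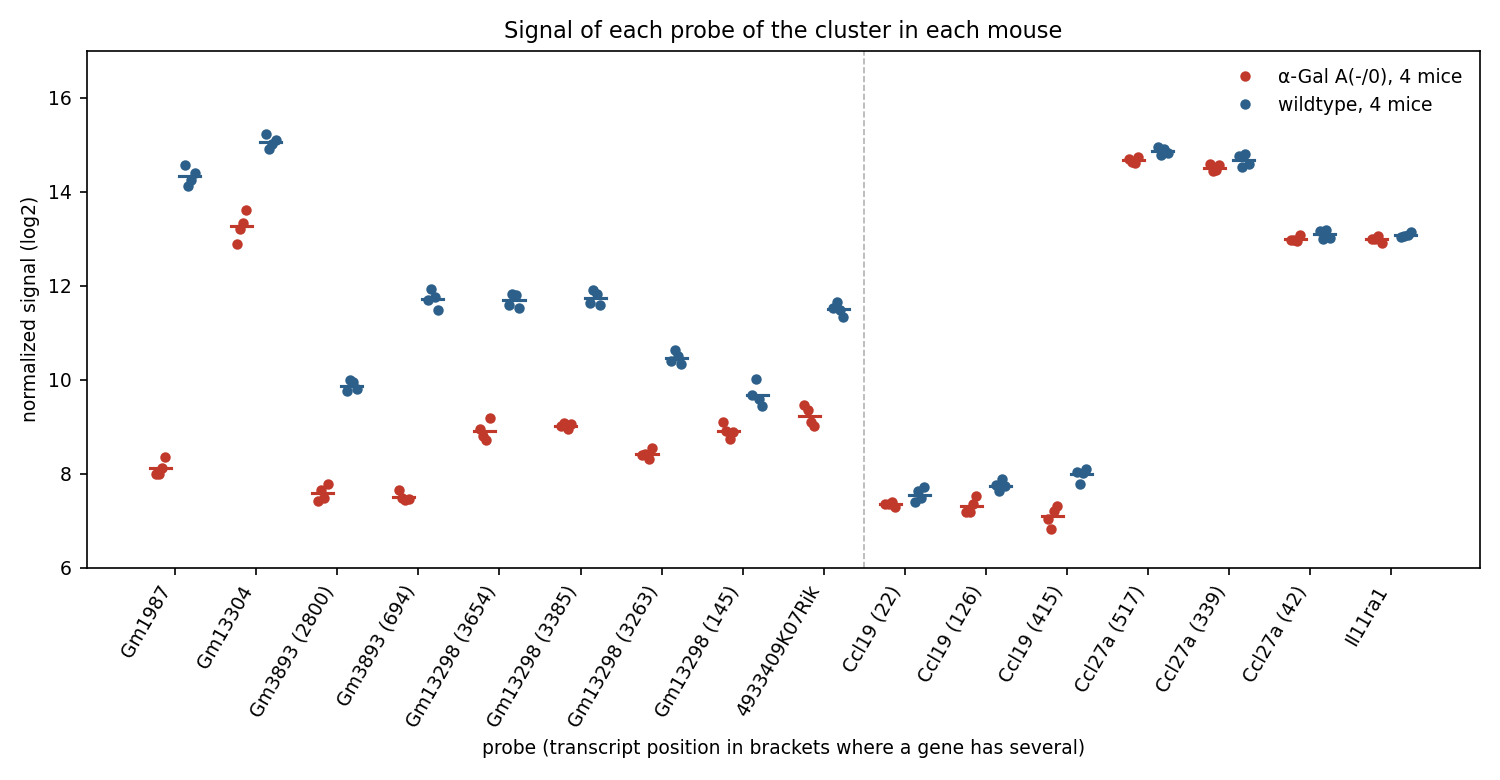
Normalized log2 signal of the 16 probes of the cluster (x axis, probes of the copies left of the dashed line and of Ccl19, Ccl27a and Il11ra1 right of it); each point is 1 mouse, and a short bar is the mean of 4 mice. The α-Gal A(-/0) points lie below all wildtype points at each of the 9 probes of the copies, by 5.77 log2 units for Gm1987.

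Of the genes of the cluster that carry an established symbol, Ccl27a and Il11ra1 differed less than any copy, while the largest Ccl19 difference exceeded that of the Gm13298 probe at position 145. The Ccl19 probe at transcript position 415 (chr4:42250105-42250164, + strand) had signals of 7.03, 6.82, 7.22 and 7.31 in α-Gal A(-/0) mice, against 8.03, 7.79, 8.02 and 8.09 in wildtype mice, with a log2 fold change of -0.89 (SE 0.12), or 1.85-fold. At position 126 the difference was -0.44 (SE 0.09), with a gap of 0.106 between the groups. At position 22 it was -0.20 (SE 0.08), and the groups overlapped. The 60 bases of the probe at position 22 occur unchanged in the RefSeq promoter windows of both Ccl19 and Gm12407, so this sequence is not particular to Ccl19. Those of the probe at position 126 occur in the Ccl19 window as well. These windows end 50 bases after the gene start, so both probes lie at least partly before the RefSeq start.

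Ccl27a had 3 probes with log2 fold changes of -0.10 (SE 0.07) at transcript position 42, -0.16 (SE 0.08) at position 339 and -0.20 (SE 0.06) at position 517. At position 517 the signals were 14.71, 14.64, 14.61 and 14.73 in α-Gal A(-/0) mice, against 14.96, 14.79, 14.90 and 14.82 in wildtype mice, and the groups were 0.0582 log2 units apart. The probes at 339 and 517 share 48 identical bases and are no independent readings. Both also list Ccl27b and Gm13306 as targets, whereas the probe at 42 lists Ccl27a alone.

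Il11ra1 overlapped between the genotypes. Its probe (chr4:41716285-41716344, + strand), which also lists the copy Gm13305, had signals of 13.006, 12.999, 13.064 and 12.903 in α-Gal A(-/0) mice, against 13.048, 13.057, 13.070 and 13.137 in wildtype mice, with a log2 fold change of -0.09 (SE 0.06). The Il11ra2 transcript is listed only by the Gm2002 probe, which was not well above background on any array.

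**Figure D2:**
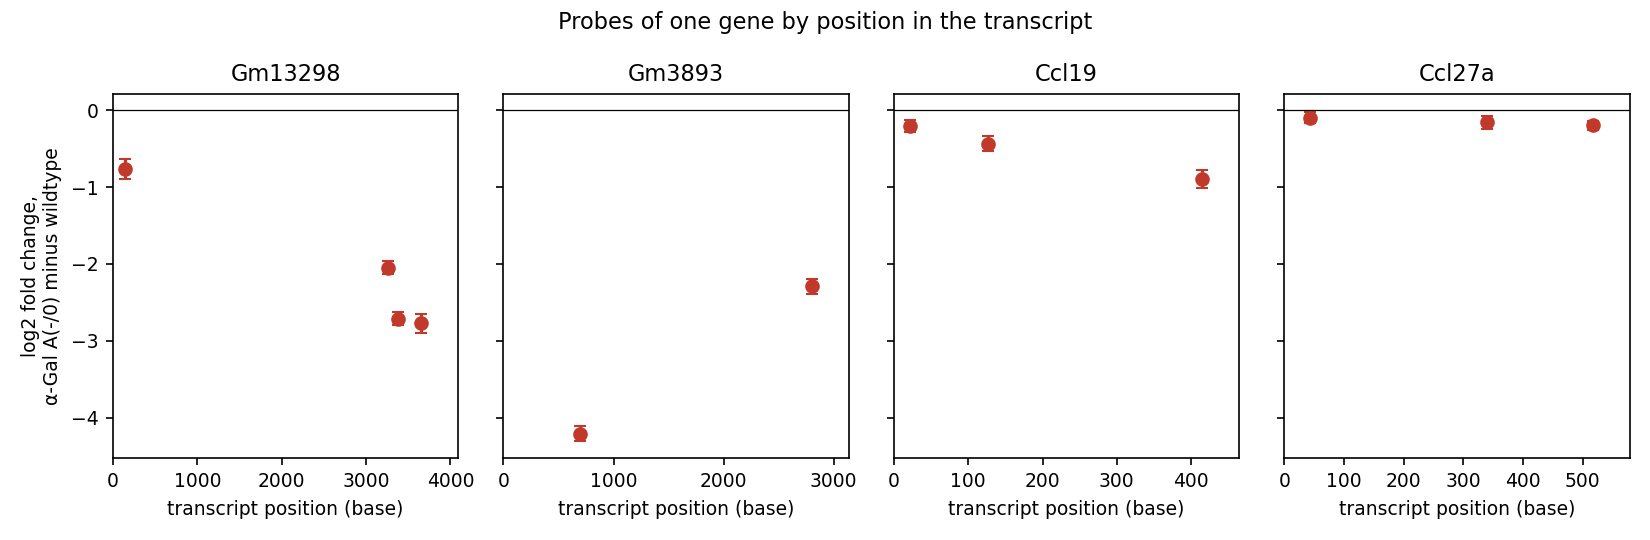
Log2 fold change, α-Gal A(-/0) minus wildtype, of the probes of Gm13298, Gm3893, Ccl19 and Ccl27a (y axis) by the position of the probe in the transcript (x axis, in bases); bars are 1 standard error of the model. Probes of one gene spread between -0.77 and -2.77 for Gm13298, between -2.29 and -4.20 for Gm3893 and between -0.20 and -0.89 for Ccl19. The Ccl19 probes at positions 22 and 126 lie at least partly before the RefSeq gene start.

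As a description of the selected probes, 10 of the 16 had an adjusted p under 0.05 with a lower signal in α-Gal A(-/0) mice, all 9 probes of the copies and the Ccl19 probe at position 415. Without wildtype mouse 1, 3 or 4 in turn the Ccl19 call was lost, and the call at position 145 of Gm13298 was lost in 11 of 17 alternative settings. The share of all 34339 tested probes called in this direction was 0.58%. In 12 of the 16 every α-Gal A(-/0) value lay below every wildtype value, against 4.87% of all tested probes. Since the genes were selected on this contrast, these counts follow from the selection and nothing is read from them. The median log2 fold change was -2.29 over the 9 probes of the copies and -0.20 over the 7 probes of Ccl19, Ccl27a and Il11ra1, beside -0.025 over all tested probes. Of the 9 probes of the copies, 7 belong to Gm13298, Gm3893 and 4933409K07Rik and do not read Ccl21-type transcripts. Within a genotype the SD between mice was 0.054 to 0.30 for the copies.

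The neighbours were chosen by position, as every other probe from 39 to 45 Mb of chromosome 4, and were tested with limma and Benjamini-Hochberg adjustment over all tested probes. They were split by name only. Set apart, as neighbours without an established symbol, were Gm-numbered and Rik names, Ccl, Il11ra, Fam205 and LOC symbols and bare transcript or probe names. The rest are called single-copy, and their copy number was not checked. Of 91 tested probes for 68 single-copy genes, 0 were called, with the lowest adjusted p at 0.29, and 3 had an unadjusted p under 0.05. Over all tested probes 0.885% were called in either direction. The median log2 fold change of the single-copy probes was -0.025, and 86 of the 91 lay within 0.25 of 0. The probe farthest from 0, D4Ertd58e, at 1.82 (SE 1.33, limma adjusted p = 0.63), had log2 signals of 4.85, 10.82, 4.71 and 4.87 in α-Gal A(-/0) mice, against 5.10, 3.40, 4.54 and 4.91 in wildtype mice, and was bright in α-Gal A(-/0) mouse 2 only.

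On both flanks of the copies the log2 fold changes were small. On the side of Il11ra1, Galt, an enzyme of galactose metabolism, had log2 fold changes of -0.09 (SE 0.09) and -0.15 (SE 0.08) on its probes. On the far side, N28178 had 0.04 (SE 0.07) and -0.03 (SE 0.06), and the chaperone gene Dnajb5 had 0.16 (SE 0.07) and 0.09 (SE 0.07). The lowest p among single-copy genes belonged to Unc13b, a regulator of synaptic vesicle priming, at -0.21 (limma adjusted p = 0.29), then to the galactosyltransferase B4galt1 at -0.18 (adjusted p = 0.32) and to Dnajb5 at 0.16 (adjusted p = 0.39). Of these 3, Unc13b and B4galt1 were lower and Dnajb5 was higher in α-Gal A(-/0) mice, and none passed the threshold.

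Among the 51 tested neighbours without an established symbol, 2 were called. Both were lower in α-Gal A(-/0) mice, beside 0.58% of all tested probes called lower. The transcript ENSMUST00000177565 (chr4:42208345-42208404, + strand) had log2 signals of 2.27, 3.62, 2.29 and 2.24 in α-Gal A(-/0) mice, against 7.0, 7.40, 6.72 and 6.85 in wildtype mice. It was not well above background on any α-Gal A(-/0) array, so its signal was at least 5.63-fold lower in α-Gal A(-/0) mice when set against the dimmest signals that counted as well above background (limma adjusted p = 0.00039). LOC102634192 (chr4:42292466-42292525) had log2 signals of 4.37, 3.41, 4.13 and 4.66 in α-Gal A(-/0) mice, against 6.53, 6.46, 6.78 and 6.82 in wildtype mice, and was well above background in 1 of 4 α-Gal A(-/0) mice and in 4 of 4 wildtype mice. Its log2 fold change of -2.51 (SE 0.25, limma adjusted p = 0.0024) therefore rests on dim signals and was -0.97 with normexp background correction. Neither of these 2 probes was called under the methods' t-test, and the filter on all 8 arrays removed both. They were tested only because all 4 wildtype mice were well above background, which favours lower values in α-Gal A(-/0) mice. Nothing is therefore read from their calls or adjusted p. Both stand close to the copies, at -0.0238 and 0.0603 Mb from the Gm1987 probe.

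The ENSMUST00000177565 probe resembles the 5′ probe of Gm13298, with 34 of 48 overlapping bases identical. The first 30 overlapping bases are shown with the differing bases in capitals.
Gm13298 first probe: ctggcaagtGCgTcAgaAttaccaAggatt
ENSMUST00000177565 probe: ctggcaagtAAgAcGgaGttaccaGggatt
Among the 231 pairs formed by the 22 probes compared (the probes of the cluster, the called neighbours and the probes of Gm20878 and Gm2002), 4 overlapped by at least 36 bases with an identity of 70% or more. Besides the pairs already named, these were the Ccl27a probe at position 42 and a Gm20878 probe, with 53 of 60 bases identical.

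A further called probe, on chrUn_random, was chosen after its values were seen. LOC101056232, listed in RefSeq as Gm29804, had log2 signals of 7.21, 6.84, 6.76 and 7.11 in α-Gal A(-/0) mice, against 10.61, 10.80, 10.66 and 10.49 in wildtype mice, and a log2 fold change of -3.66 (SE 0.12, limma adjusted p = 5.3e-06). In GRCm38.p6 it stands between Ccl27a and Ccl21d. The other 6 tested probes of the same part of chrUn_random were not called. Among them the Gm20878 probes had log2 fold changes of -0.14 (SE 0.08) and -0.16 (SE 0.07). A Gm20878 probe shares 53 of 60 bases with the Ccl27a probe at position 42, so signal from Ccl27a cannot be told apart there.

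**Figure D3:**
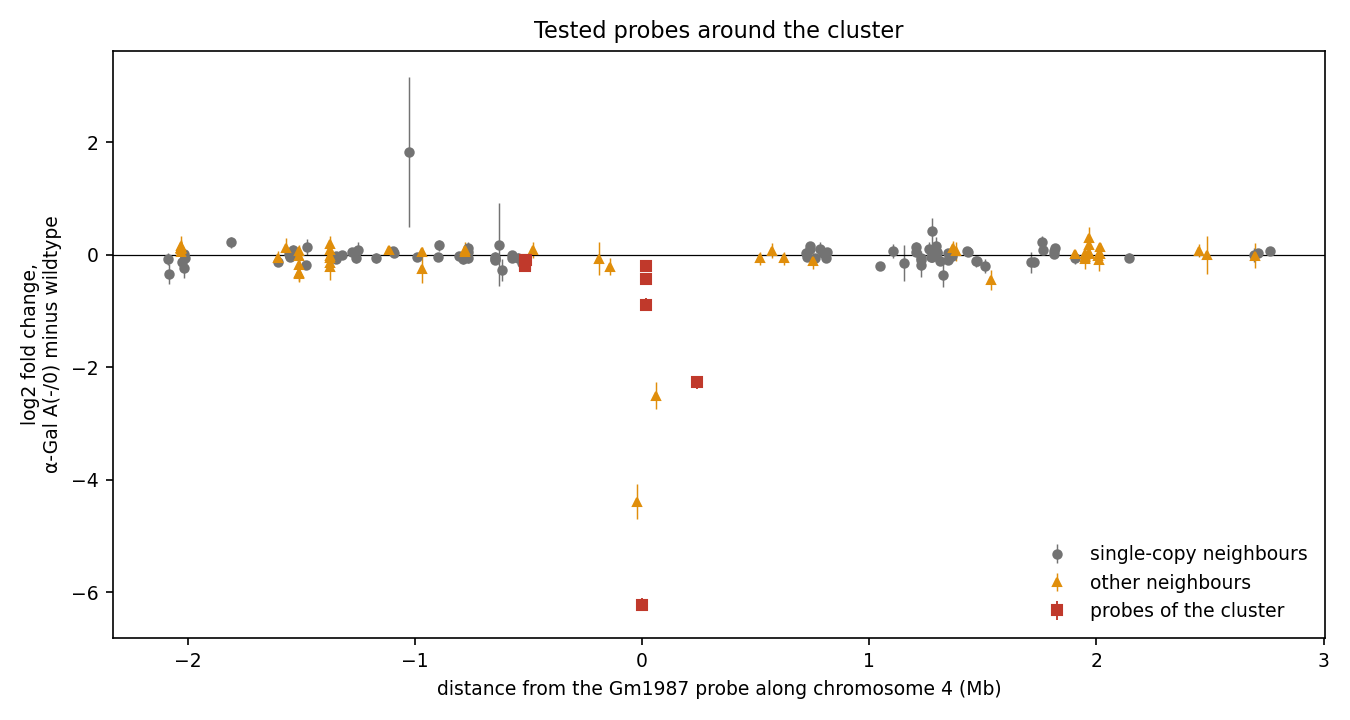
Log2 fold change, α-Gal A(-/0) minus wildtype, of tested probes placed on chromosome 4 (y axis, bars are 1 standard error) by distance from the Gm1987 probe in Mb (x axis). Squares are probes of the cluster, circles single-copy neighbours and triangles other neighbours; 86 of the 91 circles lie within 0.25 of 0, and copies placed on chrUn_random are not drawn.

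The receptors and signaling partners of these ligands were counted from lists, with 1 probe for each gene. Of 7 receptors, 6 were tested and 0 were called, with an unadjusted p under 0.05 for 2. Ccr7, the receptor of Ccl19 and Ccl21, had a log2 fold change of -0.28 (SE 0.20, limma adjusted p = 0.62), and Ccr10, the receptor of Ccl27, had 0.31 (SE 0.17, adjusted p = 0.52). Ackr4, a scavenging receptor of Ccl19 and Ccl21, was not tested, as it was well above background in at most 1 of 4 mice of a genotype on each probe. Of 23 genes of interleukin 11 and gp130 signaling, 19 were tested and 0 were called, with an unadjusted p under 0.05 for 2. Il11 itself had 0.04 (SE 0.17) and Il6st had -0.06 (SE 0.08).

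Other chemokine ligands were lower where they were called. Of 35, 19 were tested, and 3 fell: Ccl9 by 1.28 (SE 0.22, limma adjusted p = 0.042) and Ccl6 by 1.08 (SE 0.19, adjusted p = 0.047) on the log2 scale, and Ccl4, which was not well above background on any α-Gal A(-/0) array, at least 1.71-fold (adjusted p = 0.013). Over all tested probes 0.58% were called lower. All 3 attract myeloid cells and, unlike the cluster, lie on chromosome 11. The count was 0 with the slide row block, with the methods' t-test and without wildtype mouse 1, and it was 1 with the replicate block, with no filter on signal and without wildtype mouse 3, wildtype mouse 4, α-Gal A(-/0) mouse 1 or α-Gal A(-/0) mouse 3. The median over the 19 genes was -0.67, beside -0.025 over all tested probes. Ccl2, Ccl3, Ccl4, Ccl8, Cxcl10 and Ppbp were well above background in all 4 mice of the wildtype group only. They were tested for that reason, which favours lower values in α-Gal A(-/0) mice. Nothing is therefore read from this median or from the Ccl4 call. Wildtype mice 1 and 3 stood above the other wildtype mice for several of the ligands. Cxcl10 had log2 signals of 4.13, 5.31, 5.09 and 5.33 in α-Gal A(-/0) mice, against 8.67, 4.94, 9.65 and 5.49 in wildtype mice, and Ccl5 had 5.63, 5.81, 6.40 and 6.37 in α-Gal A(-/0) mice, against 8.33, 6.05, 8.84 and 6.96 in wildtype mice. Neither was called, and wildtype mouse 2 lay within the α-Gal A(-/0) range for both.

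Markers of cells that respond to or make these chemokines gave 1 call. Of the T cell markers, 6 of 10 were tested. Lck, a kinase of the T cell receptor pathway, was higher by 0.43 (SE 0.06, limma adjusted p = 0.017). Beside it stood Cd4 at 0.41 (adjusted p = 0.075) and Cd3e at 0.11 (adjusted p = 0.59). Over all tested probes 0.306% were called higher. The Lck probe also lies on chromosome 4 (chr4:129225614-129225673), outside the window of neighbours, and whether its call reflects T cells was not tested. Near this position the study lists Hdac1, Rbbp4, S100pbp and Txlna as lower in α-Gal A(-/0) mice. Among the defining markers, Cd3e, Cd4 and Cd5 were well above background in all 8 mice, whereas Cd3d, Cd3g and Cd8a were so in at most 1 mouse. The mean log2 signal of the tested T cell markers was 7.73 to 7.83 in α-Gal A(-/0) mice and 7.67 to 7.77 in wildtype mice. No call was made among 6 dendritic cell, 6 lymphatic endothelium, 8 leptomeninges and fibroblast or 10 cortical neuron markers tested by limma, of which 0, 0, 0 and 1 had an unadjusted p under 0.05. The cortical neuron markers averaged 13.31 to 13.41 in α-Gal A(-/0) mice and 13.43 to 13.54 in wildtype mice. Their probes were well above background in all 8 mice. No other brain region was measured, so these markers do not check which region was dissected. In bulk tissue fewer cells of a type and less RNA for each cell cannot be told apart.

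**Figure D4:**
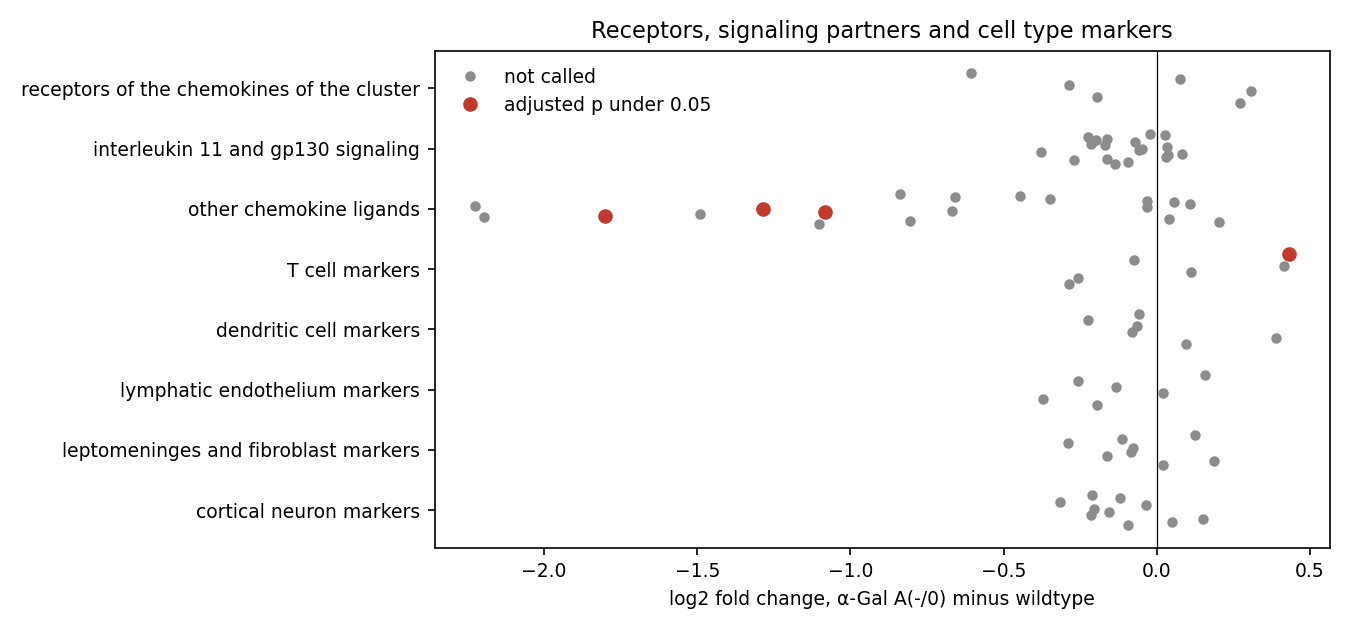
Log2 fold change, α-Gal A(-/0) minus wildtype (x axis), of the genes in each list (rows); each point is 1 gene, red where its limma adjusted p is under 0.05. The called genes are Ccl4, Ccl6 and Ccl9 on the lower side and Lck on the higher side.

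The 5 probes outside the cluster whose signals over the 8 arrays were most like those of the Gm1987 probe were Gtf2h4 on chromosome 17 (Pearson r = 0.9973), Zfp932 on chromosome 5 (r = 0.9968), 2310058N22Rik on chromosome 12 (r = 0.9963), Kcnj6 on chromosome 16 (r = 0.9956) and 1190007I07Rik on chromosome 10 (r = 0.9955). The likeness is a description over 8 arrays and rests on the split between genotypes, which all of them share. None lies on chromosome 4, and their log2 fold changes of -0.44 to -1.65 were smaller than that of Gm1987. In the study's RT-qPCR of backcrossed mice Zfp932 was also significantly lower, whereas Kcnj6 did not differ significantly.

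Over the series, 29943 to 36139 probes were well above background on α-Gal A(-/0) arrays and 35648 to 38240 on wildtype arrays, with p = 0.17 in a two-sided exact permutation test whose smallest possible p is 0.029. The lowest number belonged to α-Gal A(-/0) mouse 2. Without it, 9 of the 16 probes were called lower, and the Gm1987 difference kept its direction and call. Gla, which encodes α-galactosidase A, had log2 signals of 17.13 to 17.18 in α-Gal A(-/0) mice and 17.01 to 17.17 in wildtype mice (log2 fold change 0.06, SE 0.06, limma adjusted p = 0.71), so its probe did not separate the genotypes. Whether that probe lies outside the disrupted part of the gene is not given in the sources used here.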

How the data were processed

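Prefrontal cortex RNA of 8 mice was hybridized to 8 one-color arrays. Per the file headers, the deposited intensity values are Feature Extraction 10.7.3.1 processed signals, detrended across the array surface and not normalized between arrays. The series' value table was not used, because its columns do not follow the sample names. Spots of a probe were averaged, and log2 intensity was quantile normalized over the 8 arrays. Left out were the controls and 81 other probes that had an uneven spot. A probe entered the test if it was well above background in all 4 mice of either genotype. The test used lmFit and eBayes of limma 3.58.1 (R 4.3.3), two-sided, with Benjamini-Hochberg adjustment over 34339 probes, and called probes at an adjusted p under 0.05. Steps were tested on simulated data. No probe was saturated. The number of arrays limits precision.

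The genes of the cluster, the lists and the tests were chosen with earlier results of these data known. Named were all probes of the cluster, called neighbours or else the 3 single-copy genes with the lowest p and 2 on each flank (1 of which is not reported here), called list genes with Ccr7, Ccr10, Ackr4, Il6st and Il11, the 5 probes most correlated with Gm1987, and Gla. Array quality was compared by an exact permutation test. The alternatives were a 75th percentile shift, normexp with an offset of 50, other signal filters, saturated probes left out, the methods' t-test with unequal variances, an intensity trend with robust variances, replicate and slide row blocks and each array left out in turn. Differences within slide rows were added after the data were seen. Figures were drawn with matplotlib 3.10.9.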

Additional observations from a re-analysis of the deposited data

Results flagged for a closer look

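In 2 of 72 groups of 4 mice examined, 1 value stood far from the other 3, and chance alone marks about 1 group in 20. The ENSMUST00000177565 probe read 3.619 in α-Gal A(-/0) mouse 2, against 2.244 to 2.287 in the other α-Gal A(-/0) mice, a range in which the probe was not well above background. A Galt probe read 8.848 in α-Gal A(-/0) mouse 4, against 8.463 to 8.527 in the others of that genotype. No probe of the 16 of the cluster was among them.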

How the results depend on the processing

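All 16 probes of the cluster kept the lower direction in α-Gal A(-/0) mice under each of 17 alternatives. The Gm1987 log2 fold change ranged between -6.30 and -5.95 and that of Gm13304 between -1.93 and -1.67, with the call of Gm13304 lost under the methods' t-test. The call of the Gm13298 probe at position 145 was lost under 11 alternatives and that of the Ccl19 probe at position 415 under 4, and the other 7 probes of the copies kept theirs under all 17. With normexp background correction the log2 fold change of ENSMUST00000177565 was -1.54 and that of LOC102634192 was -0.97, both still called. Within slide row 1 (1 α-Gal A(-/0) and 3 wildtype mice) the Gm1987 difference was -6.32, and within row 2 (3 and 1 mice) -6.24. The cause of the lost calls was not tested.

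Over all probes, 304 were called, 199 of them lower. With the slide row as a block 149 were called, 95 lower, and with the methods' t-test 89 were called, 57 lower. Under that t-test 0 probes of Ccl19, Ccl27a and Il11ra1, 0 of the neighbours without an established symbol and 0 other chemokine ligands were called. The filter of well above background on all 8 arrays left 0 such neighbours called, since it removed both called probes. Of the other chemokine ligands, 1 was called with no filter on signal and 0 with the slide row block. Leaving out 1 mouse at a time gave 189 to 265 called probes, 113 to 182 called lower, 0 to 1 called for Ccl19, Ccl27a and Il11ra1, and 0 to 3 called chemokine ligands. Called single-copy neighbours numbered 0 in each setting.

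With the replicate number as a block, 156 probes were called, 103 of them lower, and 1 other chemokine ligand. The numbers did not pair the mice, since deviations of same-numbered arrays correlated between -0.089 and 0.15. Signal over background limits the dim probes, such as Ackr4, Gm2002 and ENSMUST00000177565.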
